A study of Arabidopsis thaliana with 12 samples.

Results

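Membrane transporter genes were looked up by their annotation symbols on 12 one-colour oligonucleotide arrays of shoot apex RNA from Arabidopsis thaliana. A probe set, the group of probes that reports 1 transcript, was a member when the platform annotation paired it with exactly 1 gene and the symbol began with 1 of 16 family prefixes. The prefixes were ABC (ABCA to ABCI), NRT, NPF, PHT, AMT, SULTR, PIP, TIP, NIP, AHA, CHX, CAX, STP, SUC, ZIP and HMA, and loci AT4G00005 to AT4G02999, around FRIGIDA, were left out. Of 8247 probe sets that are not controls, 3794 had 1 gene, for 3602 genes in all, and 6 of these genes were members. They are CHX15 (AT2G13620), CHX21 (AT2G31910), ZIP6 (AT2G30080), ZIP9 (AT4G33020), PIP (AT2G14260) and PIPK11 (AT1G01460), with 1 probe set each. Only 4 of the 6 are transporters. PIP is a proline iminopeptidase by the RefSeq gene table and not an aquaporin, and the symbol PIPK11 stands for a phosphatidylinositol phosphate kinase. The description as membrane transporter families therefore holds for CHX and ZIP alone. The other 13 prefixes matched no probe set with 1 gene, so the ABC transporters, nitrate, phosphate, ammonium and sulfate transporters, aquaporins, proton pumps and sugar carriers are not analysed here by symbol.

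Per the labels, plants grew at 21 °C for 30 days in short days (9 h light, 15 h dark) before transfer to long days (16 h light, 8 h dark). Shoot apices were collected at transfer (day 0) and on days 2 and 4. The 4 genotypes share the Col-0 background and combine 2 alleles of FRIGIDA (FRI) with 2 alleles of FLOWERING LOCUS C (FLC). Wild type Col-0 is fri(Col)-FLC(Col), and fri(Col)-flc-3 lacks FLC through a deletion. An FRI allele introgressed from accession San Feliu-2 (Sf-2), which is active, is present in FRI(Sf-2)-FLC(Col) with the Col-0 FLC, and in FRI(Sf-2)-flc-3 with the FLC deletion. Active FRI raises FLC, a repressor of flowering, and the Col-0 FRI is inactive. An introgression can carry other Sf-2 genes linked to FRI. There is 1 array for each genotype and day and no replicate of any, and how many plants were pooled is not given in the labels.

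ZIP proteins carry zinc, iron and related divalent metals into the cytosol, and the family is named after the yeast zinc and the plant iron transporters that founded it. CHX proteins exchange monovalent cations such as potassium for protons across the plasma membrane and inner membranes, and many CHX genes in Arabidopsis are expressed mainly in pollen. In the shoot apex, transporters bring ions, water and sugars to the growing tissue.

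The arrays had medians from 5.30 to 5.36 on the log2 scale. The FRI(Sf-2)-flc-3 day 2 array stood apart, with a residual spread of 0.165 against 0.0969 to 0.132 on the other 11. It held the highest or lowest of the 12 values for 39.7% of all 8247 probe sets, against 10.5% to 18.2% for any other array. Among the 6 members it held the highest value of CHX15, ZIP9 and PIPK11 and the lowest of PIP. Some of the differences it moved most are given with and without it. Marker genes of shoot meristem, epidermis, leaf, phloem, xylem, root, flower and pollen were looked up, 63 in all. Of these, 3 had a probe set with their name alone. UFO, listed as a marker of the shoot meristem and boundary, measured 3.36 to 4.07. Its mean of 3.59 was just above the level of 3.56 needed for testing. RCA, the Rubisco activase of green tissue, measured 10.4 to 11.2. AMS, a tapetum gene of anthers, measured 2.51 to 3.05. The label of shoot apex was not tested beyond these genes, and no probe set was named for STM, CLV1, WUS or the other defining meristem genes. In bulk samples, fewer cells of a type and less RNA per cell cannot be told apart.

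**Figure D1:**
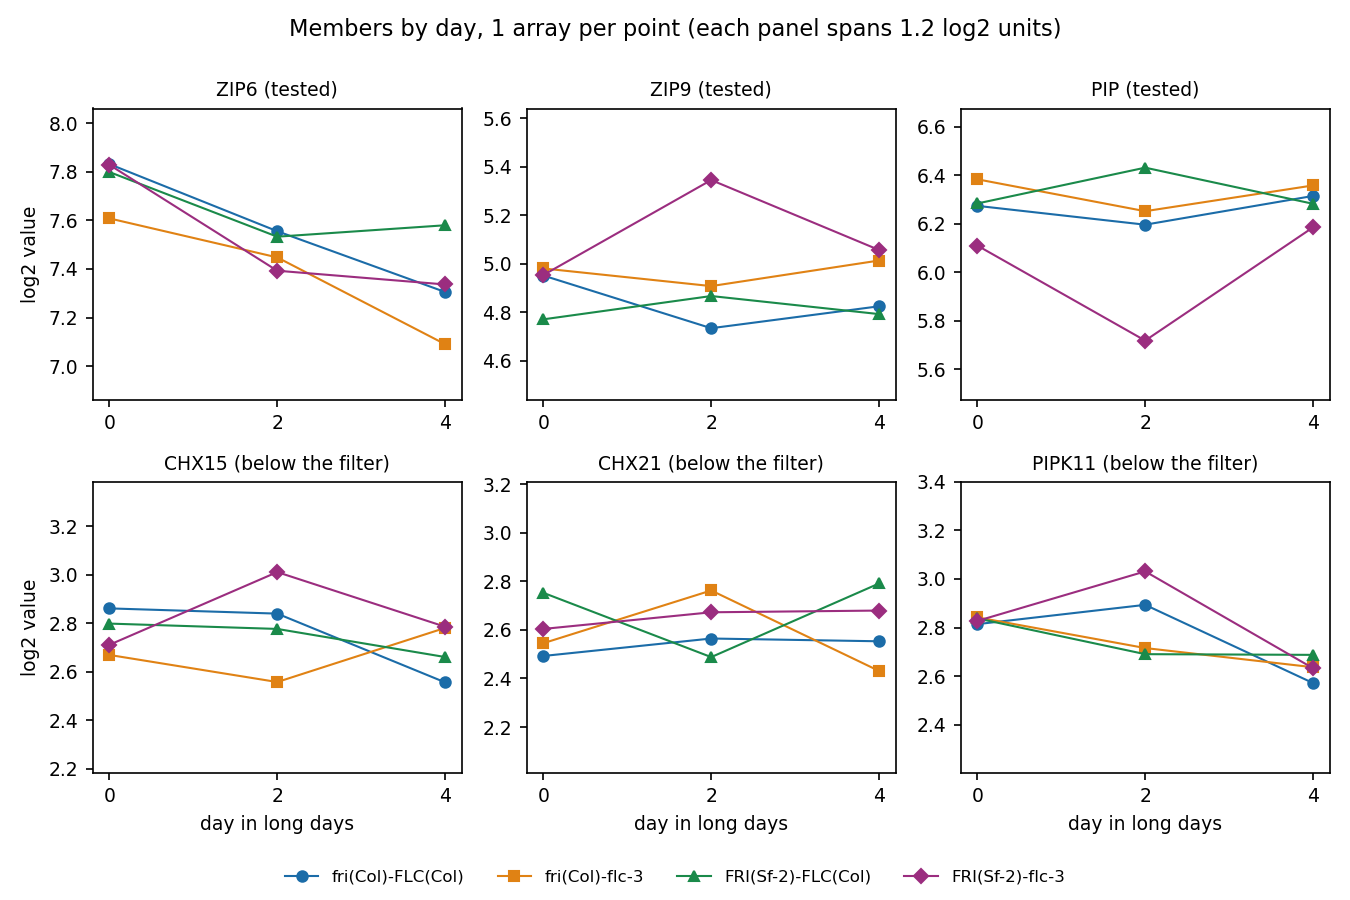
Log2 value (vertical axis) of the 6 members against the day in long days (horizontal axis), with 1 point per array and 1 line per genotype, no error bars because each genotype and day has 1 array. ZIP6 moved from 7.61 to 7.83 on day 0 down to 7.09 to 7.58 on day 4, while ZIP9 and PIP leave their range mainly on the FRI(Sf-2)-flc-3 day 2 array.

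ZIP6, a ZIP family metal transporter gene, was the only tested member called in a comparison of days. On day 0 it measured 7.83 in fri(Col)-FLC(Col), 7.61 in fri(Col)-flc-3, 7.80 in FRI(Sf-2)-FLC(Col) and 7.83 in FRI(Sf-2)-flc-3 (log2). On day 2 the same genotypes, in that order, measured 7.56, 7.45, 7.53 and 7.39. On day 4 they measured 7.31, 7.09, 7.58 and 7.34. All 4 arrays of day 4 lay below all 4 of day 0, and so did all 4 of day 2, whereas days 2 and 4 overlapped. Of the 6185 tested probe sets, 11.4% had day 4 wholly below day 0 and 7.41% had day 2 wholly below day 0.

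The means over genotypes were 7.77 ± 0.107 on day 0, 7.48 ± 0.0756 on day 2 and 7.33 ± 0.20 on day 4 (SD, n = 4 arrays). ZIP6 fell by 0.44 ± 0.0862 (SE, log2) from day 0 to day 4, to 0.738 of its day 0 level, with a limma adjusted p of 0.00349 over all tested probe sets. The fall was seen in 4 of 4 genotypes. By day 2 the fitted change was -0.28 ± 0.0862, also negative in 4 of 4 genotypes, without a call (limma adjusted p = 0.0562). This adjusted p lay between 0.037 and 0.181 over 17 alternative settings and was under 0.05 in 5 of them. From day 2 to day 4 the change was -0.15 ± 0.0862, negative in 3 of 4 genotypes (limma adjusted p = 0.34). The share of the fall that came before day 2 is therefore not settled by these arrays. Plants held in short days past day 0 were not sampled, so long days, plant age and occasion of harvest cannot be told apart.

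Across the genotypes the day 4 change of ZIP6 was -0.53 in fri(Col)-FLC(Col), -0.52 in fri(Col)-flc-3, -0.22 in FRI(Sf-2)-FLC(Col) and -0.49 in FRI(Sf-2)-flc-3 (log2, 1 array per day). FRI(Sf-2)-FLC(Col), a combination that flowers late, thus had the smallest of the 4 changes, and its day 4 value of 7.58 was the highest of that day. The difference between its day 4 response and that of the other 3 genotypes was 0.29 ± 0.204, with a 95% interval of -0.16 to 0.75, and did not pass (limma adjusted p = 1.0, unadjusted p = 0.181). Leaving out the FRI(Sf-2)-flc-3 day 2 array cannot move the fitted day 4 change of ZIP6 in this model. The change stayed at -0.44, with an SE of 0.0778 (limma adjusted p = 0.00253). RCA changed by -0.33 ± 0.106 from day 0 to day 4 without a call (limma adjusted p = 0.0511). UFO, with a mean just above the level needed for testing, changed by 0.25 ± 0.12 over the same days (limma adjusted p = 0.177). Whether a change in the share of green or meristem tissue has a part in the fall of ZIP6 was not tested.

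ZIP9 encodes another ZIP protein, and its transcript is known to rise under zinc deficiency. It measured 4.95, 4.73 and 4.82 in fri(Col)-FLC(Col) on days 0, 2 and 4. It measured 4.98, 4.91 and 5.01 in fri(Col)-flc-3, and 4.77, 4.87 and 4.79 in FRI(Sf-2)-FLC(Col). In FRI(Sf-2)-flc-3 it measured 4.95, 5.34 and 5.06. The day groups overlapped throughout, and only the FRI(Sf-2)-flc-3 day 2 value lay above 5.06. The fitted day 4 change was 0.01 ± 0.0969, with a 95% interval of -0.20 to 0.22 (limma adjusted p = 0.97). For ZIP6 the interval of the day 4 change was -0.63 to -0.25, and the difference between the 2 ZIP genes was not itself tested.

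PIP, the proline iminopeptidase gene, whose enzyme removes proline from the amino end of peptides, was tested beside them because its symbol begins with the letters of an aquaporin family. Its probe set carries the suffix _s_at, which marks probes that can match more than 1 transcript. PIP measured 6.20 to 6.43 on the 9 arrays of the other 3 genotypes, and 6.11, 5.72 and 6.19 in FRI(Sf-2)-flc-3 on days 0, 2 and 4. All 3 values of FRI(Sf-2)-flc-3 lay below the other 9 values, as was the case for 0.631% of all tested probe sets, a pattern noticed after the values were seen. The day 4 change was 0.02 ± 0.0971 (limma adjusted p = 0.909). Of the 3 tested members, 0 rose and 1 (ZIP6) fell by day 4, beside 18.3% of all tested probe sets called in either direction and 9.49% called lower. At an unadjusted p under 0.05, which 31.3% of all reached, the count was again 1. The 3 members had a median day 4 change of 0.01, against 0.04 over all tested probe sets. By day 2, 0 of 3 were called in limma, beside 10.7% of all, and 1 (ZIP6) had an unadjusted p under 0.05, as had 24.5% of all. Between days 2 and 4, 0 of 3 were called in limma, beside 4.35% of all, and 0 had an unadjusted p under 0.05, against 20.1% of all. With counts limited to the 2 tested transporters, 1 fell by day 4 and 0 were called in the other day comparisons.

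**Figure D2:**
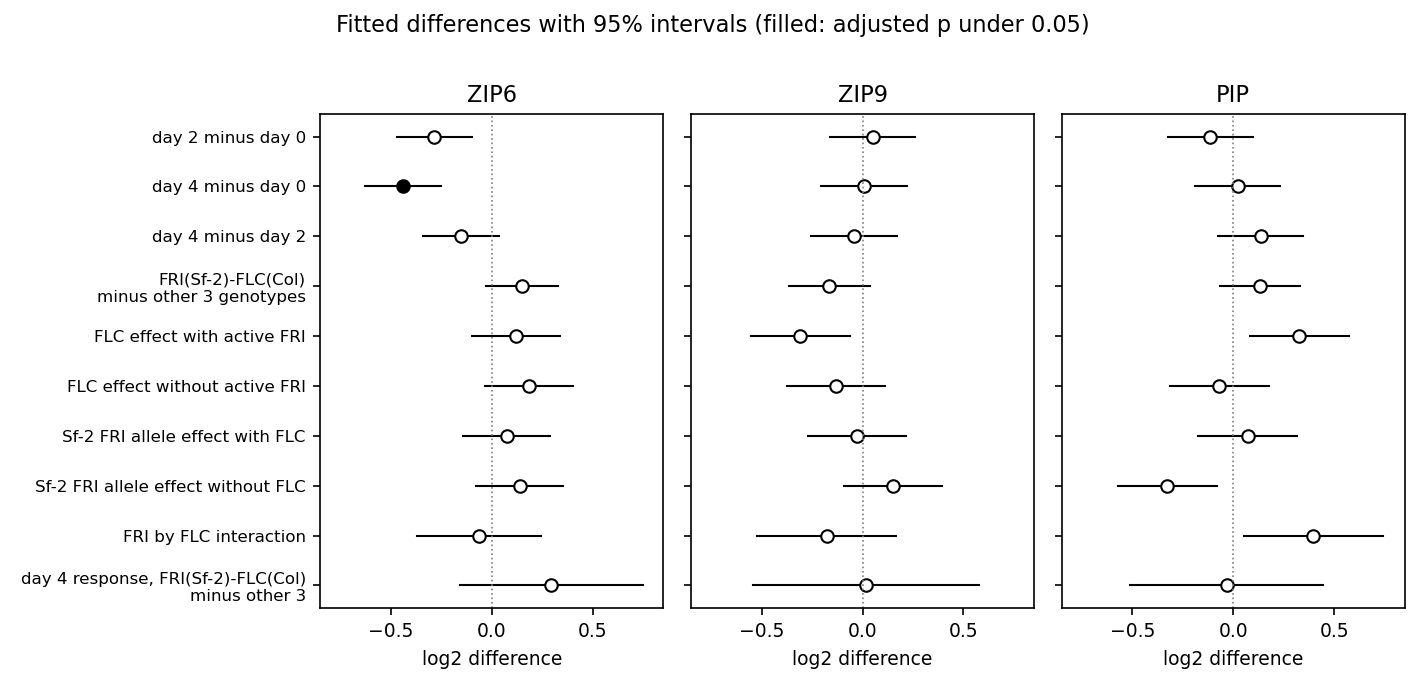
Fitted log2 difference (horizontal axis) of ZIP6, ZIP9 and PIP in the 10 comparisons (vertical axis), with bars for the 95% interval from limma and a filled point where the adjusted p was under 0.05. The ZIP6 day 4 change of -0.44 is the only filled point, and the widest bars belong to the day 4 response of FRI(Sf-2)-FLC(Col) against the other 3 genotypes.

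The comparisons between genotypes ask whether transcripts of the 3 tested members depend on FRI, on FLC or on both. PIP, 1 of the 3, is not a transporter. Of the 2 tested transporters alone, 0 were called in these comparisons, beside 0.0162% to 0.76% of all tested probe sets. Only ZIP9 of the 2 had an unadjusted p under 0.05, in the FLC effect with active FRI, as had 11.8% of all. In FRI(Sf-2)-FLC(Col) against the mean of the other 3 genotypes, ZIP6 measured 0.15 ± 0.0813 higher and ZIP9 -0.16 ± 0.0914 (log2), each with the same sign on 3 of 3 days and neither with a call (limma adjusted p = 0.545 and 0.556). Of the 3 tested members 0 were called in limma, beside 0.76% of all tested probe sets, and 0 had an unadjusted p under 0.05, which 10.7% of all had. The means of ZIP6 over the 3 days were 7.64 ± 0.142 in FRI(Sf-2)-FLC(Col), 7.56 ± 0.263 in fri(Col)-FLC(Col), 7.52 ± 0.27 in FRI(Sf-2)-flc-3 and 7.38 ± 0.265 in fri(Col)-flc-3 (SD over days, n = 3 arrays). These SDs include the fall over the days, so they cannot be used to judge the genotype differences, which the fit compares within days.

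The effect of FLC with active FRI is FRI(Sf-2)-FLC(Col) minus FRI(Sf-2)-flc-3. ZIP9 was lower with FLC on 3 of 3 days, by a difference of -0.31 ± 0.112, and PIP was higher on 3 of 3 days, by 0.33 ± 0.112. Neither passed (limma adjusted p = 0.318 and 0.278), although both had an unadjusted p under 0.05 (0.0175 and 0.0128). Without the FRI(Sf-2)-flc-3 day 2 array these differences shrank to -0.18 ± 0.097 for ZIP9 and 0.19 ± 0.0949 for PIP, with unadjusted p-values of 0.0963 and 0.0693 in limma. The values of both genes therefore rest in good part on that array. ZIP6 differed by 0.12 ± 0.0995 (limma adjusted p = 0.656), and by 0.06 ± 0.104 without that array. In this comparison 0 of 3 members were called in limma, beside 0.146% of all, and 2 had an unadjusted p under 0.05, beside 11.8% of all.

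The effect of FLC without active FRI is fri(Col)-FLC(Col) minus fri(Col)-flc-3. ZIP6 was higher with FLC on 3 of 3 days by 0.18 ± 0.0995, and ZIP9 lower on 3 of 3 days by a difference of -0.13 ± 0.112. Neither was called, each with a limma adjusted p of 1.0. In all, 0 of 3 members were called in limma, beside 0.0162% of all, and 0 had an unadjusted p under 0.05, beside 2.47% of all. ZIP9 thus had lower fitted values with FLC in both FRI backgrounds, but in neither was the difference called.

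The Sf-2 FRI allele was compared with the Col-0 allele in plants with and without FLC. With FLC present the differences were 0.07 ± 0.0995 for ZIP6, -0.03 ± 0.112 for ZIP9 and 0.07 ± 0.112 for PIP, of which 0 were called in limma, beside 0.178% of all, and 0 had an unadjusted p under 0.05, beside 6.87% of all. None of the 3 had the same sign on all 3 days. Without FLC, PIP was lower with the Sf-2 allele on 3 of 3 days, with a difference of -0.33 ± 0.112 (limma adjusted p = 0.447), which became -0.19 ± 0.0949 without the FRI(Sf-2)-flc-3 day 2 array. ZIP6 and ZIP9 differed by 0.14 ± 0.0995 and 0.15 ± 0.112 there, neither with 1 sign on all days. Without that array they were 0.19 ± 0.104 and 0.02 ± 0.097. Again 0 of 3 were called in limma, beside 0.0808% of all, and 1 (PIP) had an unadjusted p under 0.05, beside 8.99% of all.

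The interaction is the FLC effect with active FRI minus the FLC effect without it. PIP had the largest value of the 3, 0.40 ± 0.159 with a 95% interval of 0.05 to 0.74 (limma adjusted p = 0.678), and 0.26 ± 0.125 without the FRI(Sf-2)-flc-3 day 2 array. ZIP9 was at -0.18 ± 0.158 and ZIP6 at -0.06 ± 0.141, and without that array they were at -0.05 ± 0.128 and -0.12 ± 0.137. In limma 0 of 3 were called, beside 0.0323% of all, and 1 (PIP) had an unadjusted p under 0.05, beside 7.26% of all. For the day 4 response of FRI(Sf-2)-FLC(Col) against the other genotypes, 0 of 3 were called in limma, beside 0.0162% of all, and 0 had an unadjusted p under 0.05, beside 1.92% of all. On simulated data of the same size, limma recovered 70.0% of probe sets shifted by 0.5 log2 units in FRI(Sf-2)-FLC(Col) and 65.0% of those shifted by 0.5 on day 4. Each simulation shifted 100 probe sets by 0.5 and 100 by 1 log2 unit, with no other differences between days or genotypes. The number of changed probe sets affects the adjusted p, so these rates need not carry over to the real comparisons. Smaller shifts, the other comparisons (the interaction among them) and an array that stands apart were not simulated.

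The CHX genes and PIPK11 lay below the filter and were not tested. CHX15, a cation/proton exchanger gene, measured between 2.56 and 3.01 over the 12 arrays, with a median of 2.78. The lowest value was that of fri(Col)-FLC(Col) on day 4, and the highest that of FRI(Sf-2)-flc-3 on day 2. CHX21, a second gene of the exchanger family, measured between 2.43 and 2.79, with a median of 2.58. Its lowest value was in fri(Col)-flc-3 and its highest in FRI(Sf-2)-FLC(Col), both on day 4. PIPK11, whose enzyme class makes phosphoinositide signalling lipids, measured between 2.57 and 3.03, with a median of 2.76. Its 4 day 0 values lay between 2.81 and 2.84, and its 4 day 4 values, from 2.57 to 2.69, all lay below them. Day 4 lay wholly below day 0 for 11.4% of the tested probe sets, and no such share was computed for those below the filter. The filter was a mean of 3.56, and the lowest value on any array was 2.12, so these 3 probe sets sat near the bottom of the scale. With no filter, all 6 members were tested and the same single call was made. PIPK11 then had a day 4 change of -0.20 ± 0.0803 (limma adjusted p = 0.135). For CHX15 and CHX21 the day 4 changes were -0.06 ± 0.0932 and 0.02 ± 0.0913 (limma adjusted p = 0.728 and 0.944). At this signal, whether the 3 genes were transcribed in the apex was not detectable.

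**Figure D3:**
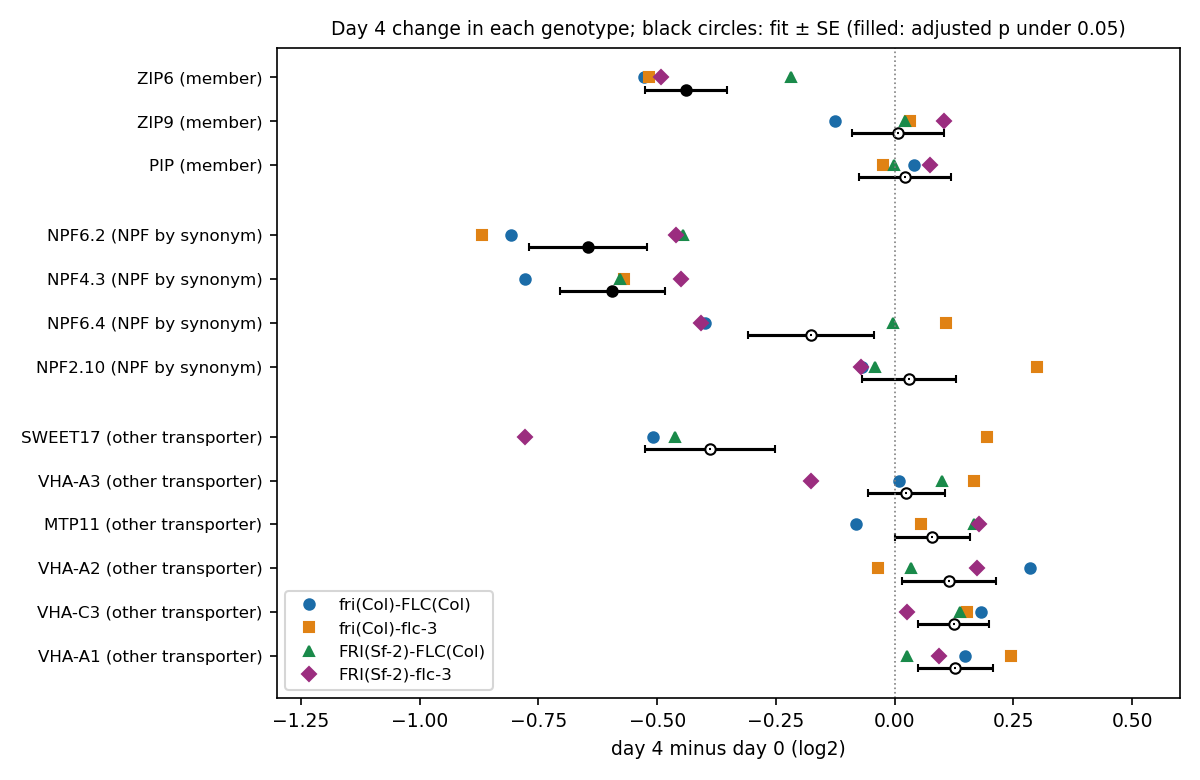
Day 4 minus day 0 (log2, horizontal axis) in each of the 4 genotypes (coloured symbols, 1 array per day) for the tested members, the NPF genes listed by synonym and other transporter genes, with the limma fit ± SE as a black circle, filled where the adjusted p was under 0.05. ZIP6, NPF6.2 and NPF4.3 carry the filled circles at -0.44, -0.65 and -0.59, and all 4 genotypes lie below 0 for each of them.

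Genes of the searched families can stand in the annotation under other symbols. By RefSeq, 5 probe sets had a synonym made of a family prefix and a number alone. Synonyms with AT before the prefix or a letter after the number were not searched, so genes of the searched families may be missed. The 5 were all of the NPF family, whose proteins carry nitrate, peptides and other substrates with protons. They are NPF2.10 (symbol GTR1, AT3G47960), a glucosinolate transporter gene, and NPF4.3 (AT1G59740), NPF4.5 (AT1G27040), NPF6.2 (AT2G26690) and NPF6.4 (AT3G21670), listed by locus. NPF6.2, known as a nitrate transporter of the leaf petiole, measured 8.84, 8.57, 9.01 and 8.94 on day 0 in fri(Col)-FLC(Col), fri(Col)-flc-3, FRI(Sf-2)-FLC(Col) and FRI(Sf-2)-flc-3. On day 4 it measured 8.03, 7.70, 8.56 and 8.48 in the same order. The day 4 values all lay below those of day 0, and NPF6.2 fell by 0.65 ± 0.124 (limma adjusted p = 0.00308). NPF4.3, an NPF family gene, measured 7.81, 7.78, 8.11 and 7.89 on day 0 and 7.03, 7.21, 7.53 and 7.44 on day 4, again without overlap. Of all tested probe sets, 11.4% had day 4 wholly below day 0.

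NPF4.3 fell by 0.59 ± 0.11 from day 0 to day 4 (limma adjusted p = 0.00246) and by 0.51 ± 0.11 from day 2 to day 4 (limma adjusted p = 0.0242). The second call was lost in 6 of 17 alternative settings, each of which left out 1 array, of day 2 or day 4, from a genotype other than FRI(Sf-2)-flc-3 (adjusted p from 0.06 to 0.0918). Its day 2 change was -0.08 ± 0.11, without a call. Without the FRI(Sf-2)-flc-3 day 2 array that change was 0.05 ± 0.083, and the later fall was -0.64 ± 0.083. NPF6.2 changed by -0.33 ± 0.124 by day 2, negative in 4 of 4 genotypes, without a call (limma adjusted p = 0.121). From day 2 to day 4 it changed by -0.32 ± 0.124, again without a call (limma adjusted p = 0.181), and rose by 0.21 in FRI(Sf-2)-flc-3. Without the FRI(Sf-2)-flc-3 day 2 array this later change was -0.46 ± 0.101 with a call (limma adjusted p = 0.0355). No other setting is given here for that step. The later step of NPF4.3 was largest in fri(Col)-FLC(Col), at -0.81, and smallest in FRI(Sf-2)-flc-3, at -0.05, and the day 2 value of the latter comes from the array that stood apart. RCA fell by 0.47 ± 0.106 over the same step (limma adjusted p = 0.0301), and the part of green tissue in the fall of NPF4.3 was not tested. NPF2.10 and NPF6.4 had day 4 changes of 0.03 ± 0.0989 and -0.18 ± 0.132 without a call, and NPF4.5, at 2.76 to 3.34, was not tested. Thus 2 of 4 tested NPF probe sets fell by day 4 and 0 rose, where 9.49% of all tested probe sets were called lower. In the 7 comparisons that involve genotypes 0 of the 4 were called in limma, and 0 to 2 per comparison had an unadjusted p under 0.05. Across these comparisons 0.0162% to 0.76% of all tested probe sets were called, and 1.92% to 11.8% had an unadjusted p under 0.05. The 2 were NPF6.2 and NPF4.3 in FRI(Sf-2)-FLC(Col) against the other genotypes, where 0.76% of all tested probe sets were called and 10.7% had an unadjusted p under 0.05. In FRI(Sf-2)-FLC(Col), NPF6.2 and NPF4.3 measured 0.36 ± 0.117 and 0.37 ± 0.104 above the mean of the other genotypes, on 3 of 3 days each, with limma adjusted p-values of 0.261 and 0.166. The probe set of NPF6.2 is an _s_at one, as are those of PIP, UFO and RCA.

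Among other transporter families looked up by symbol, 13 probe sets were found and 6 tested. They are 4 subunit genes of the vacuolar proton pump (VHA-A1, VHA-A2, VHA-A3 and VHA-C3), the manganese transporter gene MTP11 and SWEET17, a vacuolar fructose transporter gene. By day 4, 0 of these 6 were called in limma, with 1 (SWEET17) at an unadjusted p under 0.05, where 18.3% of all were called and 31.3% had an unadjusted p under 0.05. Their median change was 0.10 against 0.04 over all tested probe sets. SWEET17 changed by -0.39 ± 0.137 (limma adjusted p = 0.0716), negative in 3 of 4 genotypes. The pump subunits and MTP11 had fitted changes from 0.02 to 0.13, and the probe set of VHA-C3 is an _s_at one. The 7 untested probe sets were those of NRAMP5 and 6 glutamate receptor-like channel genes (GLR2.2, GLR2.3, GLR2.7, GLR2.8, GLR2.9 and GLR3.5).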

How the data were processed

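The values deposited by the authors are log2 signals, 1 for each probe set on each array, between 2.12 and 13.18. No header or label names this unit, which follows from the range of the values, and the software and normalization they used are not given in the sources at hand. Array medians lay within 0.06 of each other, and no further normalization was applied. Of 8297 probe sets, 50 controls were left out. In the platform annotation 3794 of the rest had 1 gene, 70 had several genes and 4383 had no gene, and 3784 of the 3794 were found in the RefSeq table of TAIR10.1. Coordinates are left out, since the array names no build.

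Tests covered the 6185 probe sets with a mean above the 25th percentile (3.56). They used limma 3.58.1 (R 4.3.3; lmFit and eBayes with a trend), two-sided, on all 12 arrays, with Benjamini-Hochberg adjusted p called under 0.05. Genotype and day entered as additive terms (6 residual and 5.93 prior degrees of freedom). Residuals thus mix array noise with real differences in day response, and p-values measure no spread between separate plants. Day terms of its own for FRI(Sf-2)-FLC(Col), used for its day 4 response, left 4 residual degrees of freedom. The fit was tested on simulated data. The number of arrays limits the precision.

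Alternatives were quantile normalization, filtering at the 50th percentile or not at all, no trend, array weights and leaving out each array. Named were all called members, the highest and most variable tested member of each family, members with the largest differences of 1 sign where none was called, and non-transporters. Members and lists were chosen with earlier results of these data known, and the NPF synonyms after the annotation was read.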

Additional observations from a re-analysis of the deposited data

How the results depend on the processing

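The fall of ZIP6 by day 4 kept its direction and call in all 17 alternative settings, with changes from -0.51 to -0.39 and limma adjusted p-values from 0.00108 to 0.0193. A fitted day 4 change cannot move when the filter or trend is changed or a day 2 array is left out. Those settings vary only its SE and adjusted p. The count of members called for day 2 against day 0 was 0 and became 1, ZIP6, with quantile normalization, with the filter at the 50th percentile and with array weights, and ranged from 0 to 1 when 1 array was left out (1 without fri(Col)-flc-3 day 2 or without FRI(Sf-2)-FLC(Col) day 4). The causes were not tested. The counts of members called in the other 9 comparisons did not move in any setting run. The day 4 response of FRI(Sf-2)-FLC(Col) gave no value without that genotype's day 0 or day 4 array. The day 4 falls of NPF6.2 and NPF4.3 kept their calls in 17 of 17 settings. The NPF4.3 fall from day 2 to day 4 kept its call in 11 of 17 and lost it without any 1 of the day 2 or day 4 arrays of fri(Col)-FLC(Col), fri(Col)-flc-3 and FRI(Sf-2)-FLC(Col), with adjusted p-values up to 0.0918. No paired analysis was possible because the labels give no replicate numbers, though the genotype term already lets each day comparison be made within genotypes. Signal limits CHX15, CHX21 and PIPK11, which lay below the filter.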

Other observations

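Further transporter genes were found by the wording of their RefSeq synonyms, a list put together after the annotation was read. It holds 7 probe sets, all tested, and 0 were called in limma in the day 2 or day 4 comparison with day 0, with 3 and 1 at an unadjusted p under 0.05. Of all tested probe sets 10.7% and 18.3% were called in these comparisons, and 24.5% and 31.3% had an unadjusted p under 0.05. The tonoplast monosaccharide transporter gene TMT1, whose protein loads sugars into the vacuole, has 2 probe sets, and they gave day 2 changes of -0.29 ± 0.136 and -0.30 ± 0.105 (limma adjusted p = 0.208 and 0.0919). In FRI(Sf-2)-flc-3 the first of them changed by -0.96 on day 2, against -0.05 to -0.08 in the other 3 genotypes, and the second by -0.75, against -0.06 to -0.32. That day 2 array is the one that stood apart, and without it the day 2 changes were -0.10 ± 0.0732 and -0.19 ± 0.087 (limma adjusted p = 0.447 and 0.191). TMT2, its close relative, changed by -0.14 ± 0.0707 by day 2 and by 0.24 ± 0.0707 from day 2 to day 4 (limma adjusted p = 0.247 and 0.0794). AVA-P1 and AVA-P2, which encode proteolipid subunits of the vacuolar proton pump, changed by -0.04 ± 0.0641 and -0.20 ± 0.0705 by day 4 (limma adjusted p = 0.734 and 0.07). By day 2, AVA-P2 changed by -0.19 ± 0.0705 and ACA.l, also on the list, by -0.23 ± 0.0866 (limma adjusted p = 0.12 and 0.123). These 2 and the second TMT1 probe set were the 3 with an unadjusted p under 0.05 by day 2. Each of the 3 was negative in 4 of 4 genotypes. The probe set of AVA-P2 and both of TMT1 are _s_at ones, which can match more than 1 transcript.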
